A study of Mus musculus with 12 samples.

Results

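Lipopolysaccharide (LPS), the endotoxin of Gram-negative bacteria, was given to wild-type mice made iron deficient by diet, and the response of their livers was read from 6 expression arrays. The comparison set 3 livers of LPS-injected mice (IDA LPS) against 3 livers of saline-injected mice (IDA UT, untreated). IDA stands for iron deficiency anemia, the name the study gives these animals. A gene, or a probe with no gene name, belonged to the comparison if its probe was detected above background (detection p-value under 0.01) on at least 1 of the 6 arrays. This held for 10731 of the 11571 features tested over all 12 arrays of the series, of which 8681 were named genes and 2050 were unnamed probes. The other 840 features were detected only in livers of the knockout (KO) groups.

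Both groups were wild type, on a mixed 129/Ola × C57BL/6 strain, 7 weeks old, and had eaten an iron-deficient diet for the last 3 weeks. The LPS came from Escherichia coli O26:B6, at 0.1 mg/kg, and livers were taken 6 hours after either injection. The other 6 arrays of the series came from mice lacking Tmprss6, the liver protease that restrains the iron hormone hepcidin, on an iron-replete diet and given saline (KO UT, 3 livers) or LPS (KO LPS, 3 livers). These entered the fit to share its estimate of the spread, and their own response is set beside the IDA response only at the end. Whole liver was measured, so fewer cells of a type and less RNA per cell cannot be told apart. The p-values measure the spread between these few livers, and a slide or processing batch could not be examined because the sources used here do not give one.

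LPS is carried by LPS-binding protein and CD14 to the receptor TLR4 with its partner MD-2, and the adaptor MyD88 then leads to NF-kB, which switches on cytokines, chemokines and its own inhibitors. A further branch from the same receptor leads to type I interferons and from these to interferon-stimulated genes. In liver, Kupffer cells are the main sensors of LPS. The hepatocytes respond chiefly to interleukin-1 and interleukin-6, the latter through STAT3, by making acute-phase proteins and hepcidin (Hamp), which blocks iron release by degrading the exporter ferroportin.

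The arrays of the 6 IDA livers were alike in depth of detection. Between 12641 and 13272 probes were detected per array, and the median raw signal lay between 133.75 and 151.03. Across all members, log2 intensities correlated at 0.977 to 0.989 within the saline livers, 0.985 to 0.989 within the LPS livers and 0.903 to 0.915 between them. Tmprss6 lay between 9.43 and 11.21 in the 6 IDA livers and between 7.72 and 8.39 in the 6 KO livers, with every KO liver below every IDA liver. One liver stood apart. Xist, the RNA of the inactive X chromosome, was at 11.93 in IDA UT 1 and between 4.80 and 5.10 in the other 5 IDA livers, and the Y-linked Eif2s3y was at 4.83 there and between 9.27 and 10.11 in the others. Xist was likewise at 12.05 and 11.84 in 2 of the KO UT livers, although the study describes its KO mice as male. The results that rest on IDA UT 1 are given without it below.

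Promoters of 8 responding genes are printed first, because each carries the letters of a motif bound by a factor of these pathways. Sequences are those of RefSeq on build GRCm38.p6, from 250 bases before to 50 after the annotated start, written along the gene's strand, with the motif matches in capitals. Nfkbia, Cxcl1 and Cxcl2 hold GGGANNTTCC, a core of NF-kB sites. Isg15, Ifit3 and Rsad2 hold GAAANNGAAA, the core of the interferon-stimulated response element (ISRE), and Socs3 and Hamp hold TTCNNNGAA, a core of STAT sites. Both strands were searched, so a match may read as the reverse complement, except that the STAT letters are their own. Matches that overlap run together in the capitals of Cxcl1, Cxcl2 and Isg15.
Nfkbia: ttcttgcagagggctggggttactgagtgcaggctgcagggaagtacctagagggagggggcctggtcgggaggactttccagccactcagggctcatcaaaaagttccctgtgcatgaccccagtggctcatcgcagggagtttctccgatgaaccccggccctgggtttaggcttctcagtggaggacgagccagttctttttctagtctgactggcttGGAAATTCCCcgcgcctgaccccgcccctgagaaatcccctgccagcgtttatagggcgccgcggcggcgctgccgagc
Cxcl1: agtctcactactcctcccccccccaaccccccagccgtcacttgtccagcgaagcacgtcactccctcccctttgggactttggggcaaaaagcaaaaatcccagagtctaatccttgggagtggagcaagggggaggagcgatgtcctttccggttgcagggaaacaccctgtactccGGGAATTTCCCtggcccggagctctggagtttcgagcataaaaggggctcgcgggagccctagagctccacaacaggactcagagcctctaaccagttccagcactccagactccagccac
Cxcl2: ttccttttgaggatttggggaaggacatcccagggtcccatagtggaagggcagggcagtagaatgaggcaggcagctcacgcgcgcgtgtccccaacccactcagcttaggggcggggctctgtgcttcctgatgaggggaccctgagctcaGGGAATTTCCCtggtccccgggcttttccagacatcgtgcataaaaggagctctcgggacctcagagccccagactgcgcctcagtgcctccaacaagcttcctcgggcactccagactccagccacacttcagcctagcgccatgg
Isg15: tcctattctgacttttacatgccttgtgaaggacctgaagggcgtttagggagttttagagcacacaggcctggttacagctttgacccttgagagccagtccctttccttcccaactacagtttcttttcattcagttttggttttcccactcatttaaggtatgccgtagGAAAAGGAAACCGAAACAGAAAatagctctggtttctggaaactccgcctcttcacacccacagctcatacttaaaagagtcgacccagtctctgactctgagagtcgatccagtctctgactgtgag
Ifit3: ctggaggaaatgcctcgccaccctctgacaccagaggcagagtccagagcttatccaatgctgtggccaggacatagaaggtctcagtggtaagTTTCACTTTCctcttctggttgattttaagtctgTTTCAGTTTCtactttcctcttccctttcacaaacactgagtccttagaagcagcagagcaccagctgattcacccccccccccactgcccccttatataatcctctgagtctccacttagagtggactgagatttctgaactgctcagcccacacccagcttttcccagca
Rsad2: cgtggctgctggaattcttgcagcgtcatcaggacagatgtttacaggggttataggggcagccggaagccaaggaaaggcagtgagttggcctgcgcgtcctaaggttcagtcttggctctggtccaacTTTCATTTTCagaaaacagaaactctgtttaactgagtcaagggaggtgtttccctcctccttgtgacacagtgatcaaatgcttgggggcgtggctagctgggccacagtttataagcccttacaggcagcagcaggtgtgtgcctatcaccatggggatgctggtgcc
Socs3: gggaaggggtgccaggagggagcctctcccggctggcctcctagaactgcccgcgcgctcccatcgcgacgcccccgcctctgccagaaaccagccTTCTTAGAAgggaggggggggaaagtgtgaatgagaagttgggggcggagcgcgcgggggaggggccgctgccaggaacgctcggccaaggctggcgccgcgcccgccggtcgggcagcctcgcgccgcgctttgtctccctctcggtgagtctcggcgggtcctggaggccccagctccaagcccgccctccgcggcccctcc
Hamp: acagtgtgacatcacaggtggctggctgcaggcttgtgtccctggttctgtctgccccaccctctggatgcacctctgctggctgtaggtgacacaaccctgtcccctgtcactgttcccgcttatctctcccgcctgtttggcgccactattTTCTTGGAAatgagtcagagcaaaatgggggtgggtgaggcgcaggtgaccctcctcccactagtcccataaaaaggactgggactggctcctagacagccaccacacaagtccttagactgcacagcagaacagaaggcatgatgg

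In the order printed, the windows lie on the following stretches, with the strand of the gene. Nfkbia is at chr12:55492598-55492897 (minus strand), Cxcl1 is at chr5:90890995-90891294 (plus strand), Cxcl2 is at chr5:90903649-90903948 (plus strand), Isg15 is at chr4:156200769-156201068 (minus strand). Ifit3 is at chr19:34583279-34583578 (plus strand), Rsad2 is at chr12:26456403-26456702 (minus strand), Socs3 is at chr11:117969317-117969616 (minus strand), Hamp is at chr7:30943980-30944279 (minus strand). Of the 8681 named members, 7094 had a promoter in the table. The NF-kB letters stood in 2.76% of the 653 promoters of genes that rose after LPS, 1.87% of the 589 of genes that fell, 1.33% of the 5852 of genes that were not called and 1.43% of all 27025 promoters. ISRE letters stood in 8.42%, 2.72%, 2.8% and 3.49% of the same sets, and STAT letters in 10.1%, 6.96%, 6.61% and 8.47%. Among the lists described below, the ISRE letters were found in 11 of 28 promoters of type I interferon-stimulated genes, 2 of 13 chemokine, 2 of 21 acute-phase and 0 of 16 NF-kB promoters. The NF-kB letters stood in 3 of 13 chemokine, 2 of 16 NF-kB, 1 of 28 interferon-stimulated and 1 of 21 acute-phase promoters. The STAT letters stood in 6 of 21 acute-phase, 6 of 28 interferon-stimulated, 3 of 16 NF-kB and 0 of 13 chemokine promoters. These are matches of letters within short windows and were not tested as binding sites.

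LPS changed 1842 of the 10731 members, or 17.2%, by the study's thresholds but not with its normalization. The adjusted p had to be under 0.05 and the log2 ratio beyond 1 in either direction. The log2 ratio is the mean normalized log2 intensity of the LPS livers minus that of the saline livers, so that 1 unit is a doubling, and p-values are from limma with Benjamini-Hochberg adjustment over all 11571 features. Of these, 941 rose (8.77%) and 901 fell (8.4%), and genes that met the rule are called here risen or fallen. By adjusted p alone, 2484 were higher and 2900 lower. With the authors' normalized intensities 1081 members met the thresholds, 613 higher and 468 lower. The study's own summary of this comparison lists fewer genes than either count, with more down than up. The median ratio of all members was -0.06, and -0.15 when the arrays were scaled to a common median in place of quantile normalization. Some of the calls rest on a switch in detection: 261 of the risen members were detected in LPS livers only and 258 of the fallen members in saline livers only. Of the 8223 members detected in all 6 livers, 574 rose and 553 fell. In 937 of the risen and 893 of the fallen members the 2 groups did not overlap, against 58% of all members.

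**Figure D1:**
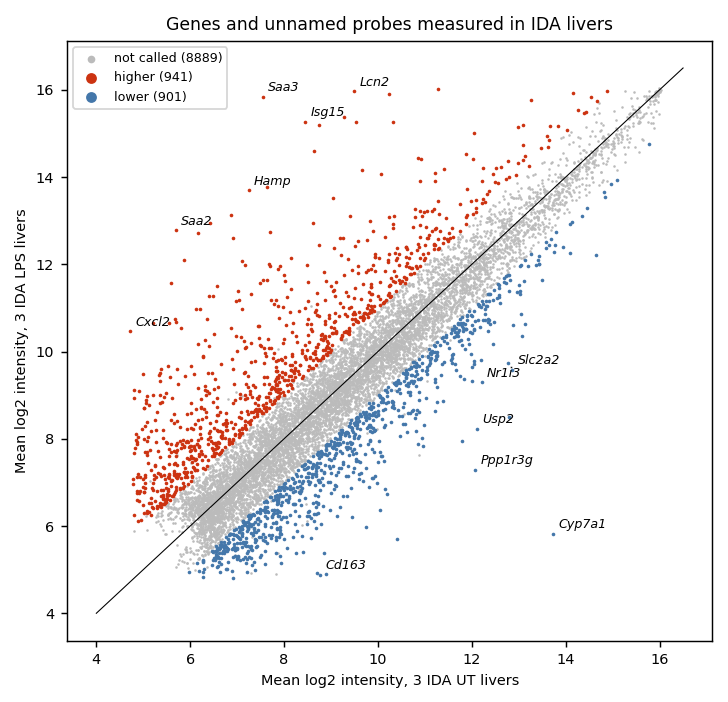
Each point is a gene or unnamed probe, with its mean normalized log2 intensity over the 3 IDA UT livers on the horizontal axis and over the 3 IDA LPS livers on the vertical axis. The 941 risen members are red, the 901 fallen members blue and the 8889 not called grey, and Saa3 and Cyp7a1 lie farthest from the line of equal levels.

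The largest rise was that of Saa3, a serum amyloid A protein of the acute phase. It stood at 8.11, 6.999 and 7.53 in the saline livers and 15.83, 15.82 and 15.87 in the LPS livers (log2 ratio 8.30, SE 0.34, adjusted p = 4.03e-08), a 314-fold difference, and it reached 88.2% of the highest signal of the array after LPS, so that its level there is bounded by the scanner's range. The largest fall was that of Cyp7a1, the enzyme whose rate limits the making of bile acids. It stood at 13.66, 13.33 and 14.21 in the saline livers and 6.92, 5.49 and 5.05 in the LPS livers (log2 ratio -7.91, SE 0.61, adjusted p = 1.54e-06), and it was detected in only 1 of the LPS livers. With the undetected livers set to the lowest detected level, the ratio was -7.04. Among the 15 largest rises were 3 further acute-phase genes (Saa2, Lcn2 and Hamp), 4 interferon-stimulated genes (Isg15, Ifit2, Rsad2 and Ifit3), 2 genes of LPS recognition (Tlr2 and Cd14), 3 chemokines (Cxcl10, Cxcl1 and Cxcl2) and the interferon-induced Gbp2 and Calhm6. Among the 15 largest falls were genes of glucose output (Ppp1r3g, Ppargc1a, Slc2a2 and G6pc), the FGF co-receptor Klb, the acyl-CoA thioesterase Acot3, the succinate receptor Sucnr1 and the macrophage receptor Cd163. The genes were chosen so that the values of the 2 groups did not overlap.

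**Figure D2:**
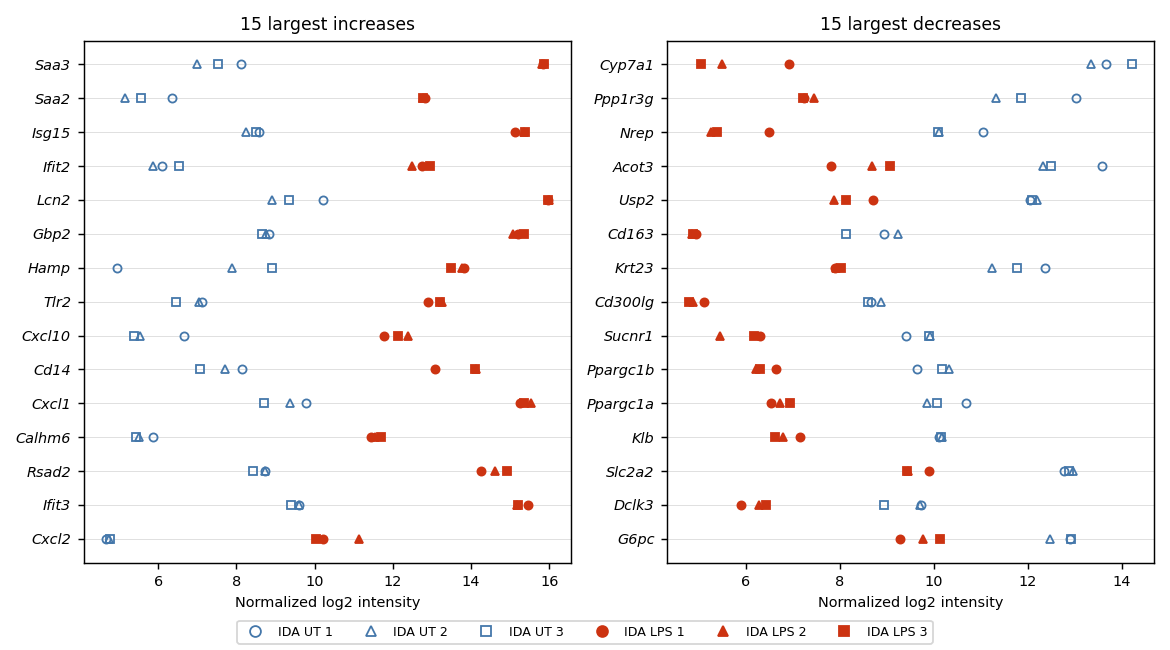
Normalized log2 intensity in each of the 6 IDA livers for the 15 largest rises (left) and the 15 largest falls (right), with open symbols for saline and filled symbols for LPS. Genes were chosen for groups that do not overlap, and Hamp and Ppp1r3g show the saline livers spread most widely.

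Gene lists of pathways, complexes and cell types were then read against these shares. A list is described by how many of its measured members rose or fell and by its median ratio. Members detected only in the group where they are high had to differ, so the counts among members detected in all 6 livers are given beside the totals of the main lists.

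**Figure D3:**
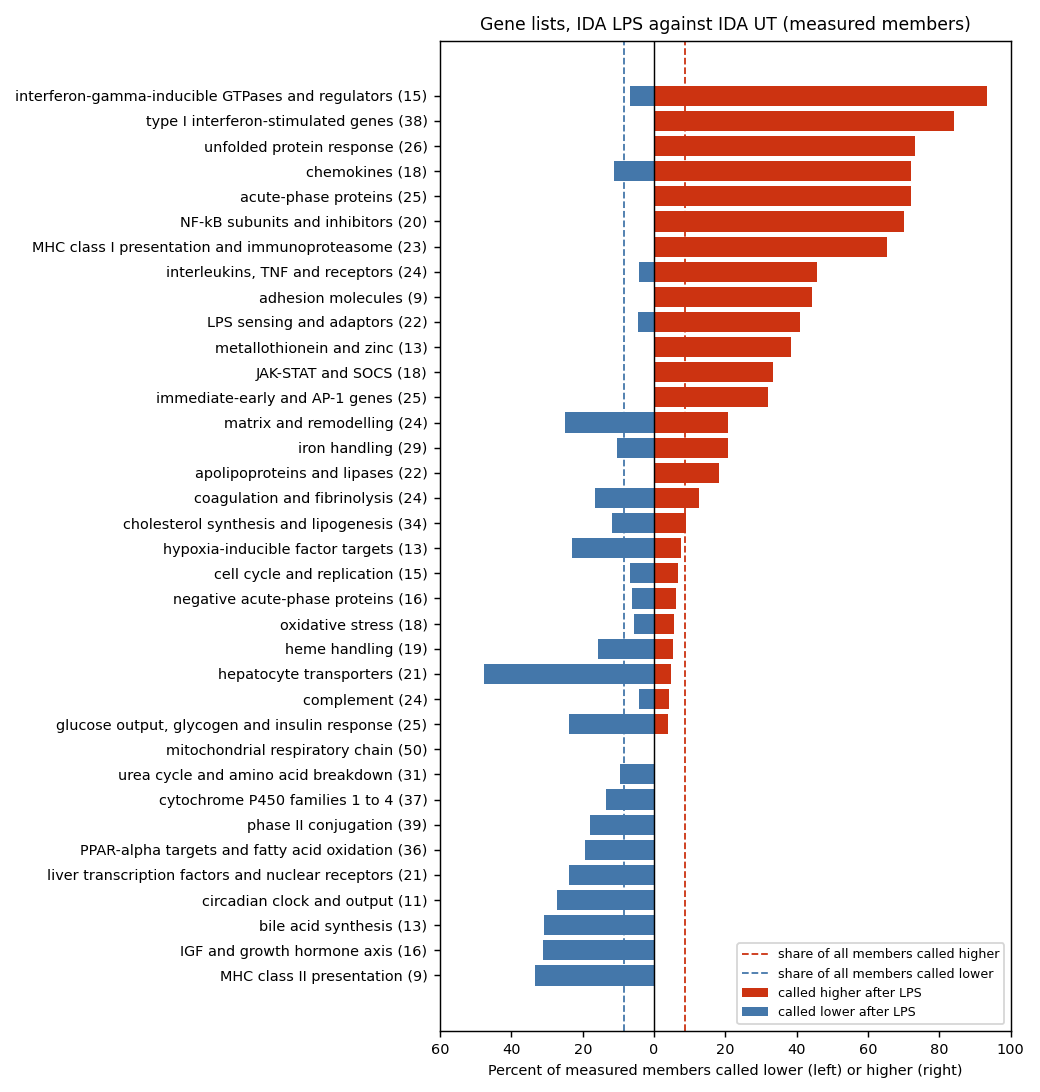
Percent of the measured members of each list that rose (red, right) or fell (blue, left) after LPS, with the number measured in brackets and dashed lines at 8.77% and 8.4%, the shares over all members. Interferon-inducible GTPases and type I interferon-stimulated genes have the largest shares of risen members, and hepatocyte transporters the largest share of fallen ones, among the lists drawn (marker and sex-biased lists are not).

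Receptors and adaptors of LPS recognition are described first. Of 22 measured members of the sensing list, 9 rose and 1 fell (6 and 1 of the 16 detected in all 6 livers), and the median ratio was 0.54. Tlr2, the receptor of bacterial lipoproteins, stood at 7.11, 7.05 and 6.45 in the saline livers and 12.89, 13.26 and 13.21 in the LPS livers (log2 ratio 6.25, SE 0.26, adjusted p = 4.6e-08). Cd14, which hands LPS to TLR4, stood at 8.13, 7.72 and 7.07 and 13.09, 14.12 and 14.09 (log2 ratio 6.13, SE 0.38, adjusted p = 3.74e-07). The first LPS liver was the lowest of its group for both genes, and every LPS liver was far above every saline liver. Lbp, which lifts LPS out of its aggregates, rose from 11.23, 11.36 and 11.05 to 13.96, 14.18 and 14.16 (log2 ratio 2.89, SE 0.17, adjusted p = 2.59e-07), and the adaptor Myd88 from 10.87, 11.02 and 11.04 to 13.07, 13.21 and 13.31 (log2 ratio 2.22, SE 0.11, adjusted p = 8.73e-08). Irak3, a brake on the pathway below MyD88, rose by 4.94 (SE 0.22, adjusted p = 5.31e-08). Irak2, Map3k8, Tlr6 and Tirap also rose, with ratios of 2.07, 1.83, 1.55 and 1.18. The member that fell was Tlr5, the flagellin receptor, at 9.14, 8.61 and 8.77 in saline and 6.92, 7.08 and 6.80 in LPS livers (log2 ratio -1.91, SE 0.15, adjusted p = 1.54e-06). Tlr4 itself was not detected on any of the 6 arrays, and Ly96, which encodes MD-2, had a ratio of 0.43 (adjusted p = 0.0337), short of the threshold on size.

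NF-kB subunits and their inhibitors rose in 14 of 20 measured members, 9 of the 12 detected in all 6 livers, and none fell. The list's median ratio was 1.90. Nfkbia, the inhibitor IkB-alpha, whose promoter with its NF-kB letters is printed above, stood at 10.27, 10.27 and 10.54 in the saline livers and 11.91, 12.56 and 12.31 in the LPS livers (log2 ratio 1.90, SE 0.20, adjusted p = 1.69e-05). Tnfaip3, the deubiquitinase A20 that ends NF-kB signalling, stood at 6.71, 5.50 and 6.17 and 10.71, 11.36 and 10.88 (log2 ratio 4.86, SE 0.27, adjusted p = 1.99e-07), and was detected in 1 saline liver. Nfkbiz, an IkB-like cofactor of secondary response genes, rose by 2.90 (SE 0.20, adjusted p = 6.11e-07). All 3 genes separated the groups without overlap. Of the subunits, Relb rose at least 5.73-fold, Nfkb2 by 1.89 and Rela by 1.16. The words "at least" stand where a gene was undetected in every liver of a group, whose level was then taken as the higher of its own value and the lowest detected signal of each array.

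Cytokines and their receptors came next in the cascade. In the list of interleukins, TNF and receptors 11 of 24 measured members rose and 1 fell (6 and 0 of the 16 detected in all 6 livers), with a median of 0.46. Il1b, the inflammasome cytokine, stood at 6.01, 6.63 and 6.003 in the saline livers and 10.92, 10.93 and 11.11 in the LPS livers (log2 ratio 4.77, SE 0.34, adjusted p = 8.69e-07). Its values in IDA UT 1 and 3 lay below the lowest detected levels of those arrays (6.64 and 6.48). Tnf was undetected in all saline livers and stood at 7.94, 7.75 and 8.18 after LPS, at least 2.68-fold higher (adjusted p = 2.07e-07). Il1rn, the secreted antagonist of interleukin-1, rose from 8.41, 7.40 and 7.23 to 11.55, 12.37 and 12.10 (log2 ratio 4.33, SE 0.33, adjusted p = 1.54e-06). The decoy receptor Il1r2 rose as well, by 2.96, and so did the receptor subunits Osmr (1.38), Il6st (1.20) and Tnfrsf1a (1.47). Lifr, the receptor of leukemia inhibitory factor, fell, and Il6ra had a ratio of -0.69 (adjusted p = 0.00187). No member of the list fell with the authors' intensities, without background correction or with the mean of all probes of a gene. Il1a, the other interleukin-1, overlapped between groups, at 6.91, 7.30 and 7.48 in saline and 8.17, 6.71 and 7.97 in LPS livers (adjusted p = 0.342).

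Of 18 measured chemokines 13 rose and 2 fell, with a median of 3.89, or 2.85 with undetected values at the lowest detected level. Only 7 of the 18 were detected in all 6 livers, of which 4 rose. Cxcl1 and Cxcl2 attract neutrophils through CXCR2, and their promoters carry the NF-kB letters shown above. Cxcl1 stood at 9.78, 9.36 and 8.72 in the saline livers and 15.24, 15.53 and 15.35 in the LPS livers (log2 ratio 6.08, SE 0.56, adjusted p = 5.84e-06). Cxcl2 was undetected in the saline livers and stood at 10.22, 11.13 and 10.05 after LPS, at least 15.3-fold higher (adjusted p = 5.54e-07). Cxcl9 and Cxcl10 are induced by interferons and attract T cells. Cxcl10 went from 6.66, 5.55 and 5.39 to 11.77, 12.40 and 12.12 (log2 ratio 6.23, SE 0.34, adjusted p = 1.61e-07). Its values in IDA UT 2 and 3 lay below the lowest detected levels of those arrays (6.49 and 6.48), so the size of its rise is less certain. Cxcl9 went from 10.85, 9.72 and 10.13 to 15.92, 15.87 and 15.91 (log2 ratio 5.67, SE 0.30, adjusted p = 1.29e-07), where it reached 92.6% of the highest signal of these arrays. The monocyte attractant Ccl2 was undetected in saline livers and rose at least 7.83-fold, and Ccl4 at least 17.4-fold. The 2 that fell were Cxcl12 and Ccl21a, which guide cells in the resting state. Cxcl12 stood at 13.78, 13.75 and 13.76 in the saline livers and 12.64, 12.39 and 12.29 in the LPS livers (log2 ratio -1.32, SE 0.11, adjusted p = 2.14e-06), while Ccl21a was detected in a single saline liver. Without IDA UT 2, 1 chemokine fell in place of 2.

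In the list of JAK-STAT signalling and its SOCS feedback inhibitors 6 of 18 measured members rose and none fell, 4 of them among the 16 detected in all 6 livers. Socs3, the feedback inhibitor of interleukin-6 signalling, stood at 8.99, 8.04 and 7.41 in the saline livers and 10.97, 11.86 and 11.47 in the LPS livers (log2 ratio 3.28, SE 0.41, adjusted p = 5.15e-05). Cish, a STAT5-induced inhibitor, stood at 8.82, 8.43 and 8.19 and 11.83, 12.27 and 11.88 (log2 ratio 3.52, SE 0.28, adjusted p = 1.91e-06), and Stat3 at 11.53, 11.19 and 11.17 and 13.04, 13.17 and 13.23 (log2 ratio 1.85, SE 0.13, adjusted p = 6.94e-07). IDA UT 1 was the highest of the saline livers for all 3 genes, and the groups stayed apart. Stat2 and Jak3 also rose, by 1.11 and 1.71. Pim1 was undetected in saline livers on the probe used and detected in 2 LPS livers, at least 1.52-fold higher, and the call is lost when its brighter, undetected probe is used.

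Acute-phase proteins rose in 18 of 25 measured members, 14 of the 21 detected in all 6 livers, and none fell. The median ratio was 1.96. Saa2 was undetected in saline livers and stood at 12.81, 12.77 and 12.78 after LPS, at least 76.2-fold higher (adjusted p = 4.03e-08). Lcn2, which binds bacterial siderophores, stood at 10.21, 8.92 and 9.34 in saline and 15.97, 15.98 and 15.95 in LPS livers (log2 ratio 6.48, SE 0.42, adjusted p = 4.67e-07), where it reached 94.6% of the highest signal, so that its ratio is bounded by the range. Orm2, an orosomucoid, went from 10.81, 10.06 and 10.11 to 15.33, 15.42 and 15.04 (log2 ratio 4.94, SE 0.21, adjusted p = 4.68e-08). All LPS livers lay within narrow ranges for these genes, while IDA UT 1 was the highest saline liver in each. Lrg1, Apcs and Serpina3n rose by 2.49, 2.78 and 1.78. Many plasma-protein probes were close to the top of the scanner's range and could not have risen much: Saa1 reached 98% of the highest signal after LPS, and Hp stood at 89% before and 96% after it, with a ratio of 0.18 (adjusted p = 0.327). Fga stood at 94.5% and 92% and Hpx at 95.2% and 96.6%, and their ratios, 0.00 and 0.05, are bounded by that range. Of 16 measured negative acute-phase proteins, which fall in plasma during inflammation, 1 rose (Serpina7, by 2.18) and 1 fell (Igfals, with a ratio of -1.14, or -0.83 without IDA UT 1). The lower count ran from 0 without IDA UT 1 to 3 without IDA UT 2.

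Interferon-stimulated genes were the next group. Of 38 measured type I interferon-stimulated genes, 32 rose and none fell (22 of the 28 detected in all 6 livers), and the median ratio was 2.63. Isg15, a ubiquitin-like modifier, stood at 8.59, 8.24 and 8.50 in the saline livers and 15.12, 15.34 and 15.36 in the LPS livers (log2 ratio 6.83, SE 0.36, adjusted p = 1.3e-07). Ifit3, which acts with other IFIT proteins on viral RNA, stood at 9.60, 9.60 and 9.39 and 15.46, 15.17 and 15.20 (log2 ratio 5.74, SE 0.40, adjusted p = 7.5e-07). Rsad2, the antiviral enzyme viperin, stood at 8.73, 8.73 and 8.44 and 14.25, 14.61 and 14.92 (log2 ratio 5.96, SE 0.44, adjusted p = 1.15e-06). The saline livers lay close together for these genes, whose promoters with their ISRE letters are printed above. Irf7, which amplifies the interferon response, rose from 6.56, 6.96 and 7.10 to 10.39, 10.74 and 10.51 (log2 ratio 3.67, SE 0.27, adjusted p = 9.98e-07). Cmpk2, Oasl1 and Oasl2 rose by 5.70, 4.96 and 4.25, Mx2 by 3.25, Usp18, a brake on the interferon receptor, by 2.69, and Bst2 by 1.54.

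All 15 measured members of the list of interferon-gamma-inducible GTPases and regulators were called, 14 higher and 1 lower, with all 10 of those detected in every liver among the risen. The median ratio was 3.996. Gbp2, a guanylate-binding protein, stood at 8.85, 8.76 and 8.65 in the saline livers and 15.19, 15.08 and 15.34 in the LPS livers (log2 ratio 6.45, SE 0.25, adjusted p = 3.43e-08). Igtp, an immunity-related GTPase, stood at 10.41, 9.81 and 9.97 and 13.96, 14.06 and 14.16 (log2 ratio 3.996, SE 0.20, adjusted p = 1.07e-07), and the transcription factor Irf1 at 10.74, 11.22 and 10.74 and 13.72, 14.19 and 13.81 (log2 ratio 3.005, SE 0.20, adjusted p = 6.7e-07). Each of these separated the groups by 2 or more log2 units at the nearest livers. The exception was Gbp2b, at 7.44, 7.28 and 6.57 in saline and 5.35, 5.70 and 6.41 in LPS livers (log2 ratio -1.28, SE 0.40, adjusted p = 0.021). Its LPS values were below detection, so that only a fall of at least 1.41-fold was measured (ratio -0.49 with undetected livers at the lowest detected level, short of the size the rule asks for), and the call was lost without IDA UT 1, IDA UT 2, IDA LPS 1 or IDA LPS 2.

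Genes of antigen presentation moved in different directions by class. Of 23 measured members of the MHC class I list 15 rose and none fell, 14 of them among the 22 detected in all 6 livers, with a median of 1.41. Psmb9, an immunoproteasome subunit, stood at 9.23, 9.23 and 9.18 in the saline livers and 12.25, 12.19 and 12.20 in the LPS livers (log2 ratio 2.999, SE 0.25, adjusted p = 3.11e-06). The peptide transporter Tap1 rose by 2.62, Tap2 by 2.48 and the TAPBP-related Tapbpl by 2.55. The class I heavy chain H2-D1 rose by 1.22, H2-K1 had a ratio of 0.90 (adjusted p = 0.000175), and the light chain B2m, at 80.5% to 88.5% of the highest signal, had a ratio of -0.07. Of 9 measured class II genes 3 fell and none rose (1 and 0 of the 5 detected in all 6 livers). Their median was -0.91, or -0.74 with undetected values at the lowest detected level. H2-Aa, a class II alpha chain, stood at 8.14, 7.68 and 7.81 in the saline livers and 6.44, 7.15 and 6.38 in the LPS livers (log2 ratio -1.22, SE 0.20, adjusted p = 0.000356), and H2-Eb1 at 8.79, 8.87 and 8.77 and 7.37, 8.04 and 7.61 (log2 ratio -1.14, SE 0.16, adjusted p = 0.000109). These class II values are low and the calls are fragile: 5 genes fell without IDA UT 3, none with the authors' normalized intensities, and H2-Eb1 lost its call without IDA LPS 1 (ratio -0.99). A second probe of H2-DMa, the third of them, was not called.

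Of 24 measured complement members 22 were not called. By adjusted p alone 7 were higher and 6 lower, against 2484 and 2900 of all 10731 members. C2 rose by 1.13, a call lost under median scaling, where no member rose, and C1qc, a subunit of the recognition molecule C1q, fell by 1.20. Without IDA UT 1 the risen count was 2, and without IDA UT 3 the fallen count was 2. Coagulation genes were mixed. F13a1, Plaur and Fgl1 rose, and Klkb1 (plasma prekallikrein), F8, F13b and Serpind1 fell, of 24 measured. Fgl1 lost its call without IDA UT 3 (ratio 0.89), and F13b without IDA LPS 2 (-0.998) or IDA LPS 3 (-0.98). Klkb1 stood at 12.32, 12.46 and 12.22 in the saline livers and 10.59, 10.34 and 10.45 in the LPS livers (log2 ratio -1.87, SE 0.11, adjusted p = 2.81e-07), while the number fallen dropped to 2 without IDA LPS 2 or with the authors' intensities. Of 9 measured adhesion molecules 4 rose. Icam1, the ligand of leukocyte integrins, stood at 9.32, 9.50 and 9.40 and 12.93, 13.27 and 13.09 (log2 ratio 3.69, SE 0.14, adjusted p = 2.74e-08), and Selp, P-selectin, at 6.88, 7.14 and 7.15 and 8.97, 8.92 and 9.18 (log2 ratio 1.97, SE 0.17, adjusted p = 3.22e-06). Both separated the groups clearly, and Vcam1 had a ratio of -0.55 (adjusted p = 0.0223).

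Immediate-early and AP-1 genes rose in 8 of 25 measured members, and none fell. Junb stood at 9.56, 9.48 and 9.27 in the saline livers and 11.36, 12.34 and 11.93 in the LPS livers (log2 ratio 2.44, SE 0.29, adjusted p = 3.61e-05). Ier3 stood at 9.63, 8.83 and 9.11 and 12.07, 13.21 and 12.53 (log2 ratio 3.41, SE 0.30, adjusted p = 4.17e-06). These were distinct between groups, but several members varied widely among the saline livers. Gadd45g, a stress-induced growth arrest gene, was at 13.25, 7.93 and 11.40 there and at 14.13, 14.56 and 14.64 after LPS (log2 ratio 3.58, SE 1.00, adjusted p = 0.011), and its ratio was 2.12 without IDA UT 2. Atf3 was at 9.55, 5.28 and 6.45 and 8.997, 9.58 and 8.37, so that IDA UT 1 exceeded IDA LPS 1 (adjusted p = 0.0981). Fos overlapped as well (adjusted p = 0.244). Without the 3 Xist-positive livers, which include IDA UT 1, the list's count rose from 8 to 15, and without IDA UT 1 alone to 11.

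Among iron genes the largest change was in Hamp, which encodes hepcidin. It stood at 4.94, 7.88 and 8.91 in the saline livers and at 13.82, 13.77 and 13.49 in the LPS livers (log2 ratio 6.45, SE 0.71, adjusted p = 2.15e-05). The saline livers were spread over almost 4 log2 units, with IDA UT 1 below detection, while the LPS livers lay close together. Without IDA UT 1 the ratio was 5.30 (adjusted p = 2.74e-07). The neighbouring paralog Hamp2, nearly identical in sequence, went the other way, from 9.96, 10.56 and 11.92 to 8.20, 7.93 and 8.41 (log2 ratio -2.63, SE 0.40, adjusted p = 0.000222), and whether the probes of the 2 genes read each other's transcript was not tested. Slc40a1, the exporter ferroportin, fell from 13.04, 13.41 and 12.74 to 10.78, 9.90 and 10.38 (log2 ratio -2.71, SE 0.26, adjusted p = 6.63e-06), with every LPS liver below every saline liver. Of the measured importers, Slc11a2, which moves ferrous iron out of endosomes, rose from 9.50, 9.54 and 9.70 to 11.79, 12.02 and 12.07 (log2 ratio 2.38, SE 0.21, adjusted p = 4.57e-06), and Slc39a14, which takes up free iron and zinc, from 7.43, 7.44 and 7.45 to 8.84, 8.82 and 9.08 (log2 ratio 1.47, SE 0.14, adjusted p = 8.96e-06). Slc39a8, related to Slc39a14, and the ferritin receptor Scara5 had ratios of -0.91 and -0.23 and were not called. In all, 6 of 29 measured iron genes rose, the others being the metalloreductase Steap4, the ferroxidase Cp and the BMP target Id3, and 3 fell. Without IDA LPS 3, 6 fell, and with median scaling 5. Tmprss6 overlapped between groups at 11.21, 10.29 and 10.39 and 9.61, 10.46 and 9.43 (ratio -0.80, adjusted p = 0.0298), and the transferrin receptor Tfrc had a ratio of -0.91 (adjusted p = 0.0844). Hfe and Tfr2, sensors of transferrin iron, had ratios of -0.23 and -0.25, and the BMP target Id1 -0.06, none of them past the test. Trf, at 98.5% and 100% of the highest signal in saline and LPS livers, and Fth1, at 94.5% and 91%, could show little change.

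Heme and zinc genes gave shorter lists of changes. Hmox1, heme oxygenase 1, stood at 9.08, 8.78 and 8.14 in the saline livers and 10.78, 11.27 and 10.64 in the LPS livers (log2 ratio 2.23, SE 0.27, adjusted p = 4.07e-05), the 1 risen gene of 19 measured. Cd163, the macrophage receptor that clears haptoglobin-hemoglobin, was at 8.93, 9.24 and 8.12 in saline livers and undetected after LPS, at least 4.47-fold lower (adjusted p = 3.01e-07). Slc48a1, a heme transporter, fell by 1.36. Abcb6 fell by 1.06, with a ratio of -0.999 without IDA UT 1, and Alas1, the first enzyme of heme synthesis, overlapped between groups (ratio -0.13, adjusted p = 0.529). Of 13 measured zinc genes 5 rose. The metallothionein Mt2 stood at 11.28, 10.11 and 9.83 and 12.37, 12.62 and 12.14 (log2 ratio 1.97, SE 0.34, adjusted p = 0.000564), Mt1 was at 97.9% of the highest signal already in saline livers, and the zinc transporters Slc30a5 and Slc30a7 rose by 1.505 and 1.49. Slc39a7 rose by 1.03, a call lost without IDA UT 3 (0.94) or IDA LPS 1 (0.97) and not given by its other probe.

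The unfolded protein response, by which cells enlarge their folding and secretory capacity, rose in 19 of 26 measured members, 16 of the 22 detected in all 6 livers, and none fell. The median ratio was 1.48. Creld2 stood at 9.54, 9.59 and 9.84 in the saline livers and 13.81, 14.38 and 14.32 in the LPS livers (log2 ratio 4.52, SE 0.20, adjusted p = 5.31e-08). Sdf2l1, a partner of the chaperone BiP, stood at 7.28, 7.53 and 7.85 and 11.27, 11.83 and 11.81 (log2 ratio 4.09, SE 0.24, adjusted p = 2.63e-07). Hspa5, BiP itself, was undetected in saline livers and rose at least 4.54-fold (adjusted p = 8.69e-07). The groups stayed apart in each of these. Ddit3, the transcription factor CHOP, stood at 7.41, 7.65 and 6.84 and 10.07, 10.33 and 10.20 (log2 ratio 2.90, SE 0.19, adjusted p = 5.43e-07), and Xbp1 at 12.70, 12.89 and 12.73 and 14.37, 14.42 and 14.35 (log2 ratio 1.61, SE 0.11, adjusted p = 6.28e-07). Atf4 rose by 1.06, a call that was lost without IDA UT 3 (0.89) and that its other probe did not give, and Herpud1 was at 70.2% of the highest signal before LPS, with a ratio of 0.12.

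Genes of bile acid synthesis and transport fell more often than they rose. Of 13 measured synthesis genes 4 fell and none rose (3 and 0 of the 11 detected in all 6 livers). By adjusted p alone 8 were lower and 2 higher. Cyp7a1 was followed by Cyp8b1, the 12-alpha-hydroxylase that sets the share of cholic acid. Cyp8b1 stood at 14.29, 14.84 and 14.82 in the saline livers and 12.45, 12.02 and 12.15 in the LPS livers (log2 ratio -2.44, SE 0.25, adjusted p = 1.25e-05). Hsd3b7 fell by 1.16 and Cyp39a1 by 1.19, the latter not on a second probe and not without IDA LPS 2 (ratio -0.91), whereas Cyp27a1, of the alternative route, had a ratio of -0.38 (adjusted p = 0.102). Of 21 measured hepatocyte transporters 10 fell, and the median ratio was -0.91. Slc10a1, the bile acid importer NTCP, was at 7.54, 7.10 and 7.55 in saline livers and undetected after LPS, at least 1.74-fold lower (adjusted p = 5.42e-06), and it was not called with the authors' normalized intensities (ratio -0.95). Abcg8, which exports sterols into bile, stood at 12.81, 13.09 and 13.23 and 10.90, 10.92 and 10.77 (log2 ratio -2.18, SE 0.19, adjusted p = 4.17e-06), and the organic anion importer Slco1a4 at 9.80, 9.71 and 10.11 and 7.75, 7.69 and 7.86 (log2 ratio -2.11, SE 0.19, adjusted p = 4.65e-06). Saline and LPS livers did not overlap in any of the 3. The bile salt export pump Abcb11 had a ratio of -0.83 (adjusted p = 0.00042). Slc51b was the 1 risen transporter, at 6.76, 5.47 and 5.39 in saline and 6.95, 6.82 and 6.98 in LPS livers, and its adjusted p of 0.03 became 0.0559 to 0.114 without each of the 5 livers other than IDA UT 1.

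Of 21 measured liver transcription factors and nuclear receptors 5 fell, and none rose. Nr1i3, the constitutive androstane receptor CAR, stood at 12.19, 12.06 and 12.38 in the saline livers and 9.37, 9.50 and 9.02 in the LPS livers (log2 ratio -2.91, SE 0.21, adjusted p = 8.7e-07). Nr1i2, the pregnane X receptor, stood at 10.67, 10.62 and 10.49 and 9.52, 9.52 and 9.22 (log2 ratio -1.17, SE 0.13, adjusted p = 2.83e-05), and Nr1h4, the bile acid receptor FXR, at 12.28, 13.001 and 12.78 and 11.78, 11.76 and 11.51 (log2 ratio -1.003, SE 0.16, adjusted p = 0.000399). The groups did not overlap in any of the 3, but Nr1h4 lost its call without IDA UT 2 (ratio -0.85), IDA UT 3 (-0.96) or IDA LPS 3 (-0.92), and the count was 3 without IDA UT 2 and 2 with the authors' intensities. Hnf4a, the factor that maintains hepatocyte identity, overlapped between groups (ratio 0.08, adjusted p = 0.587). Cytochrome P450 enzymes of families 1 to 4 fell in 5 of 37 measured members and rose in none, with 17 lower by adjusted p alone and 8 fallen with median scaling. Cyp2b10, the classical CAR target, stood at 10.36, 10.26 and 11.56 and 8.98, 9.30 and 7.60 (log2 ratio -2.10, SE 0.48, adjusted p = 0.00351). Cyp3a11 had a ratio of -0.30 (adjusted p = 0.145), and Cyp2e1, at 93.4% to 98.2% of the highest signal, -0.01. Phase II conjugation enzymes fell in 7 of 39, led by the sulfotransferase Sult1c2, which was undetected after LPS and at least 5.22-fold lower. Ugt2a3, a glucuronosyltransferase, stood at 9.65, 9.70 and 9.96 and 8.46, 8.18 and 8.11 (log2 ratio -1.52, SE 0.14, adjusted p = 6.28e-06).

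Glucose output and glycogen genes fell in 6 of 25 measured members, and 1 rose. Slc2a2, the glucose transporter GLUT2, stood at 12.77, 12.95 and 12.87 in the saline livers and 9.88, 9.45 and 9.41 in the LPS livers (log2 ratio -3.28, SE 0.17, adjusted p = 9.35e-08). G6pc, the catalytic subunit of glucose-6-phosphatase, stood at 12.89, 12.47 and 12.92 and 9.28, 9.77 and 10.13 (log2 ratio -3.03, SE 0.37, adjusted p = 4.81e-05). Ppp1r3g, which targets a phosphatase to glycogen, stood at 13.02, 11.32 and 11.85 and 7.23, 7.45 and 7.20 (log2 ratio -4.77, SE 0.52, adjusted p = 1.87e-05). The saline livers were tight for Slc2a2 and spread over more than 1 log2 unit for Ppp1r3g, and the groups did not overlap in any of the 3. Ppargc1a, the coactivator PGC-1-alpha, fell from 10.68, 9.85 and 10.07 to 6.53, 6.73 and 6.93 (log2 ratio -3.47, SE 0.38, adjusted p = 2.16e-05), and the related Ppargc1b at least 10.9-fold. Pck1, of gluconeogenesis, fell by 1.20 and Gys2, liver glycogen synthase, by 1.93. Irs2, an insulin receptor substrate, was counted as risen although its groups overlapped, at 10.22, 9.25 and 8.50 and 10.09, 10.82 and 10.45 (log2 ratio 1.13, SE 0.43, adjusted p = 0.05), and no gene of the list was counted as risen when any of the 5 livers other than IDA UT 1 was left out.

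In lipid metabolism, targets of PPAR-alpha fell in 7 of 36 measured members and rose in none, with 20 lower by adjusted p alone. Acot3, an acyl-CoA thioesterase, stood at 13.57, 12.32 and 12.49 in the saline livers and 7.80, 8.67 and 9.05 in the LPS livers (log2 ratio -4.29, SE 0.40, adjusted p = 5.67e-06), and Acot4 at 11.35, 10.02 and 10.36 and 8.09, 8.397 and 8.51 (log2 ratio -2.25, SE 0.28, adjusted p = 5.79e-05). IDA UT 1 was the highest liver for both genes. Hadha, of mitochondrial beta-oxidation, fell by 1.31, and Ppara itself had a ratio of -0.86 (adjusted p = 0.00475). Of 34 genes of cholesterol synthesis and lipogenesis 3 rose and 4 fell, near the shares over all members (8.77% and 8.4%). Elovl6, a fatty acid elongase, stood at 12.20, 11.81 and 11.81 and 10.37, 10.01 and 10.16 (log2 ratio -1.76, SE 0.25, adjusted p = 0.000128), and Pnpla3, a lipid droplet enzyme, at 7.79, 7.85 and 8.53 and 11.81, 10.21 and 11.74 (log2 ratio 3.20, SE 0.55, adjusted p = 0.000541). The fallen count of this list was 7 without IDA UT 2, IDA LPS 1 or IDA LPS 3 and 9 with median scaling. Beyond the serum amyloids, Apoa4 and Apon rose in the list of apolipoproteins, by 1.37 and 1.07, and Apon lost its call without IDA UT 2 (0.99).

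**Figure D4:**
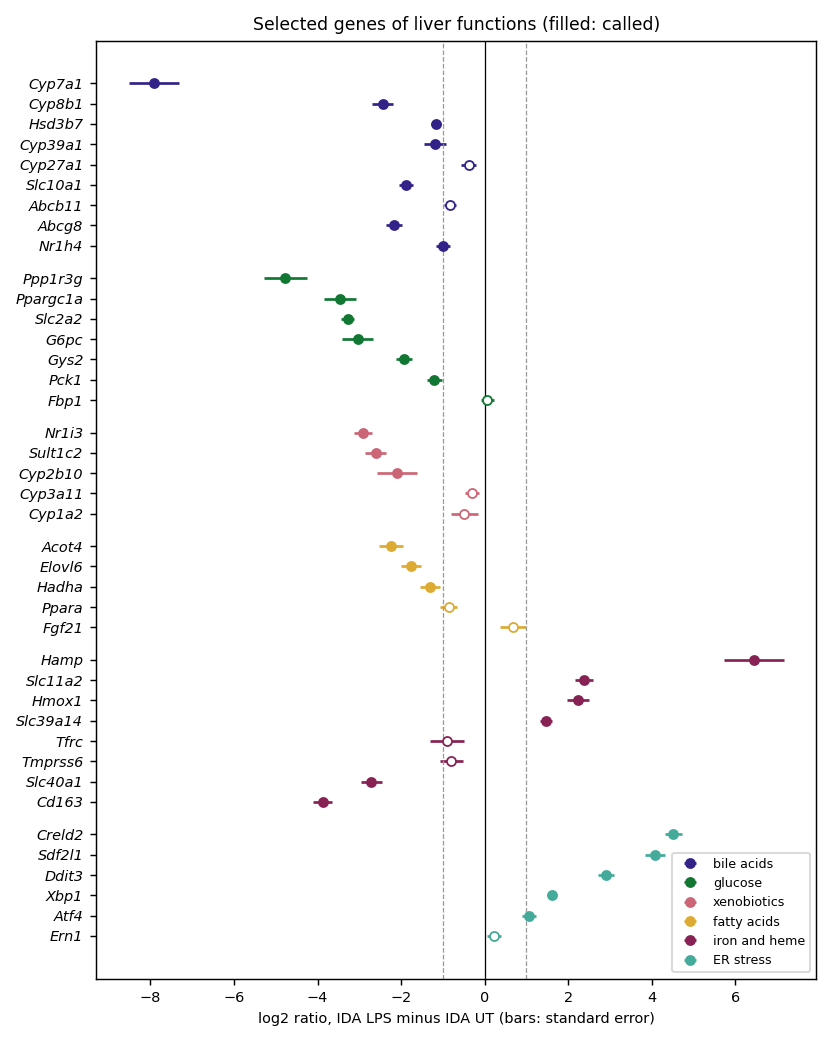
The log2 ratio of IDA LPS minus IDA UT for selected genes, in groups by function, with bars for the standard error (3 livers per group). Filled points met the rule on adjusted p and on size (dashed lines at 1 and -1), and Cyp7a1 at -7.91 and Hamp at 6.45 mark the extremes.

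None of 50 measured respiratory chain genes was called in either direction, and the list's median was -0.26. By adjusted p alone 16 of the 50 were lower, near the share over all members (2900 of 10731). Of 31 urea cycle and amino acid genes 3 fell, near the 8.4% of all members. These were Cth, Hal and Kynu, the last not without IDA UT 2 (ratio -0.94) or IDA LPS 1 (-0.93). Cps1, the first enzyme of the urea cycle, had a ratio of -0.79 (adjusted p = 0.00396), with a second probe at -1.20. Of 16 genes of the IGF and growth hormone axis 5 fell. Klb, the co-receptor of FGF21 and FGF15, stood at 10.10, 10.18 and 10.15 in the saline livers and 7.14, 6.79 and 6.62 in the LPS livers (log2 ratio -3.29, SE 0.15, adjusted p = 5.31e-08), followed by Fgf1, Igfals, Ghr and Igfbp3 at ratios of -1.03 to -1.85, and 3 fell without IDA UT 1. Ghr, the growth hormone receptor, lost its call without IDA LPS 2 (ratio -0.94) and was not called on a second probe, and Igfals and Igfbp3, which carry IGF1 in blood, lost theirs without IDA UT 1 (-0.83 and -0.87). Igfbp3 also lost it without IDA UT 3 (-0.97) or IDA LPS 3 (-0.99). Igf1 had a ratio of -0.41 (adjusted p = 0.0789). Of 11 clock genes 3 fell. Usp2, a deubiquitinase under clock control, stood at 12.05, 12.19 and 12.09 and 8.70, 7.86 and 8.13 (log2 ratio -3.88, SE 0.22, adjusted p = 2.31e-07), and Dbp at 13.74, 13.81 and 13.71 and 12.53, 12.58 and 11.71 (log2 ratio -1.48, SE 0.19, adjusted p = 7.19e-05). Among targets of hypoxia-inducible factors Adm rose and Aldoa, Pdk1 and Ankrd37 fell, Pdk1 not on a second probe. Cdkn1a, the cell cycle inhibitor p21, stood at 10.59, 9.64 and 10.76 and 12.79, 12.66 and 13.02 (log2 ratio 2.49, SE 0.32, adjusted p = 6.27e-05). Of 24 matrix genes 5 rose and 6 fell (3 and 3 with the authors' intensities), among them Timp1, risen at least 4.95-fold, and Lum, fallen at least 2.38-fold on 1 of its probes. Of the 15 matrix genes detected in all 6 livers, 1 rose and 1 fell.

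Markers of other cells moved with these lists. Of 16 neutrophil markers on the array 9 were measured and 7 rose, or 2 of the 3 detected in all 6 livers. Their median ratio was 1.84, or 1.001 with undetected values at the lowest detected level, and their summed linear level went from 11548.9 to 12666.4 in saline livers to 73432.1 to 74975.3 in LPS livers. S100a8, a calprotectin subunit, stood at 10.39, 8.47 and 8.27 in the saline livers and 13.73, 13.49 and 13.37 in the LPS livers (log2 ratio 4.48, SE 0.49, adjusted p = 2.18e-05), and S100a9 at 8.49, 6.63 and 6.39 and 12.10, 12.16 and 11.68 (log2 ratio 4.81, SE 0.50, adjusted p = 1.29e-05). IDA UT 1 was the highest saline liver in both. Most of the sum was Lrg1, which is also in the acute-phase list and is made by hepatocytes, and the granule genes Ngp, Camp, Mpo and Elane were not among the measured markers. With the authors' intensities 4 of the 9 rose. Monocyte markers rose in 3 of 4, or 1 of the 2 detected in all 6 livers, with sums of 2118 to 2531.4 and 5608.1 to 7156.5. The Kupffer cell and macrophage list had 2 risen and 4 fallen genes of 12, with sums of 7580.4 to 9565.7 and 5026.3 to 5806.2. Vsig4 and Clec4f, which mark resident Kupffer cells, had ratios of -2.67 and -1.28 and both fell, while Marco rose by 2.37. Endothelial markers fell in 5 of 13, with sums of 11944.2 to 14026.4 and 4922.4 to 5683.3. Ptprb stood at 10.12, 9.87 and 10.04 and 7.40, 7.85 and 7.14 (log2 ratio -2.55, SE 0.17, adjusted p = 5.54e-07), Clec4g, of sinusoidal endothelium, fell by 2.28, and Lyve1 overlapped between groups. None of 12 hepatocyte markers was called, with sums of 350299 to 380288.6 and 290930.6 to 332212.4. By adjusted p alone 3 were lower, near the share over all members (2900 of 10731), and 0 higher. Many of them are highly expressed plasma proteins, for which signals near the top of the range limit what can be seen. Whether hepatocyte content changed was not tested. The part of these cell types in the changes of the cytokine, chemokine and iron lists was not tested.

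Sex-biased genes are given because of the Xist-positive saline liver. Of 11 measured female-biased genes 5 fell, and 3 fell without IDA UT 1. Their summed level was 73727.5 in IDA UT 1, 46295.4 and 42181.7 in the other saline livers and 19417.2 to 23198.3 in LPS livers. Cux2, a female-specific repressor in mouse liver, stood at 9.001, 7.51 and 7.30 in the saline livers and was undetected after LPS, at least 2.52-fold lower (adjusted p = 0.000134), and Tox stood at 10.17, 10.85 and 10.86 and 7.97, 7.94 and 8.52 (log2 ratio -2.48, SE 0.22, adjusted p = 4.68e-06). IDA UT 1 was the highest saline liver for Cux2 and the lowest for Tox. Of 17 male-biased genes 1 fell, Selenbp2, with a ratio of -1.21, and 2 fell without IDA UT 1, IDA LPS 1 or IDA LPS 3. The summed level of the male-biased genes was 96620.5 in IDA UT 1, 194052.9 and 218168.5 in the other saline livers and 128450.4 to 216050.2 in LPS livers. Their median ratio was -0.045, and -0.658 without IDA UT 1. The part of sex in the other results was not tested, and the count of all calls without IDA UT 1 was 1925.

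The response of the KO livers to the same dose of LPS was set beside that of the IDA livers for the 30 genes above. The KO mice differed in genotype and in diet, and Xist-positive livers were 1 of the 3 IDA UT and 2 of the 3 KO UT livers. Genotype, diet and apparent sex cannot be told apart here, and the genes were chosen by their IDA ratios, which also enter the difference, so the values are a description of these genes. The difference between responses (KO minus IDA, tested as an interaction in the same fit) met the rule in 612 of the 10731 members, or 5.7%, and in 20 of these 30. Without the 3 Xist-positive livers only 1 KO UT liver remains, so no count of calls is given for that fit. All 20 differences kept their sign there, which the choice of these genes and the shared arrays favour. In IDA and KO livers respectively the ratios were 6.45 and -0.02 for Hamp and -7.91 and -0.31 for Cyp7a1. Hamp stood at 15.75, 15.59 and 15.76 in the KO UT livers and 15.64, 15.59 and 15.81 in the KO LPS livers, far above the IDA UT livers and at up to 87.1% and 78.4% of the highest signal, which bounds the KO ratio. Cyp7a1 stood at 12.44, 12.56 and 10.94 in the KO UT livers and 12.28, 12.28 and 10.43 in the KO LPS livers. For Cxcl1 the ratios were 6.08 and 2.63, and for Tlr2 6.25 and 3.47. Saa3 (8.30 and 7.85, adjusted p = 0.602) and Lcn2 (6.48 and 6.77, adjusted p = 0.796) had differences that did not pass the test. Both ratios are bounded by the scanner's range in the IDA LPS livers, and Lcn2 also in the KO LPS livers, where it reached 88.0% of the highest signal. The fitted KO ratio was the one closer to 0 in 29 of the 30, Lcn2 being the exception. Choosing genes by the largest IDA ratios favours this count, and no conclusion is drawn from it.

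**Figure D5:**
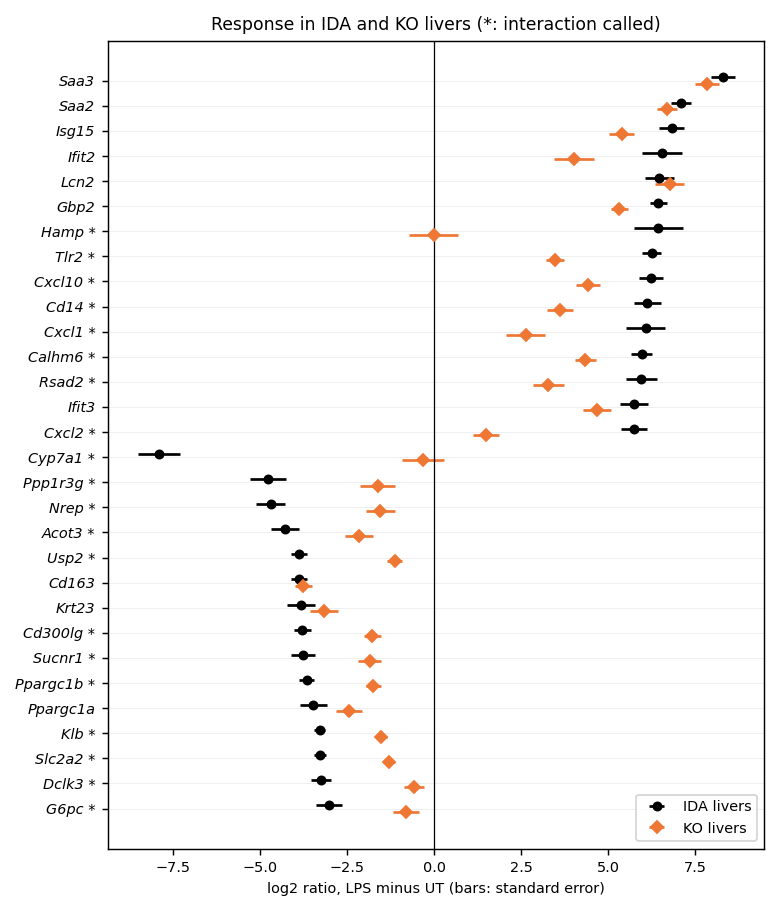
The log2 ratio of LPS minus saline in IDA livers (black circles) and KO livers (orange diamonds) for the 30 genes with the largest IDA ratios, with bars for the standard error (3 livers per group) and a star where the difference met the rule. Hamp and Cyp7a1 have KO ratios near 0. Ratios of genes undetected in a group, such as Cxcl2, Saa2 and Cd163, are fitted from signals below background, and those of Saa3 and Lcn2 are bounded by the scanner's range.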

How the data were processed

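Total liver RNA was hybridised to Illumina MouseWG-6 v2 arrays, 1 array per liver, 3 livers in each of 4 groups. The authors read them with GenomeStudio (version not given in the sources used here) and deposited, for each of 45281 probes and 12 arrays, the raw signal intensity and a detection p-value. The authors also deposited intensity values normalized by cubic spline, which served as an alternative. Their column medians lay between 137.58 and 137.63, and their ranks matched those of the raw signals in each array (rank correlation 1). Probes were named from the platform annotation, in which 34885 have 1 gene symbol, 18 several and 10378 none.

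The raw signals were processed in R 4.3.3 with limma 3.58.1. Background was estimated from the detection p-values (neqc, offset 16), followed by quantile normalization and log2. The brightest detected probe stood for each gene, and features with a detection p under 0.01 on at least 1 of 12 arrays were kept. Group means of the 4 groups were fitted on all 12 arrays (lmFit, eBayes, median standard error 0.154), and p-values were adjusted by Benjamini-Hochberg over 11571 features. The design followed the study's methods. For genes undetected in a whole group the fold is a lower bound. The fit was also run on simulated data with the means and spreads of these arrays and independent noise. Of 67 genes with a set log2 change of 1.5, 65 were called, as were 3 of 11371 unchanged genes. The simulation had no detection floor, saturation or batch, so it checks the code alone and not the calls in these data. The number of arrays limits the precision.

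Of 3027 genes with more than 1 detected probe, the brightest was called in 509; in 334 of these all other probes gave the same call. Named genes were the 15 largest changes in each direction without overlap of the groups, up to 6 called members of each of 48 lists, and genes that define a step of a pathway. Other list members named in the text were chosen after their values were seen. The members and lists were chosen with earlier results of these data known. Alternatives covered background correction, scaling, the filter on dim probes, probe averaging, the arrays in the fit, the replicate number as a block, moderation, the fold threshold and leaving out each liver.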

Additional observations from a re-analysis of the deposited data

Results flagged for a closer look

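Of the 30 genes with the largest IDA ratios, 20 had a response in KO livers that differed from that in IDA livers by the interaction test, with an adjusted p under 0.05 and a difference over 1 on the log2 scale. The values below are the KO response minus the IDA response. The genes were chosen by the IDA response, which enters the difference. The KO mice differed in both genotype and diet, and Xist-positive livers were 1 of the 3 IDA UT and 2 of the 3 KO UT livers, so that genotype, diet and apparent sex cannot be told apart. Without the 3 Xist-positive livers, a comparison of these 20 added after the data were seen, all 20 differences kept their sign. Only 1 KO UT liver remains in that fit, with no spread of its own, so sizes alone are given. They ran from -5.37 (Hamp) to -1.71 (Calhm6) for genes that rose in IDA livers. For genes that fell they ran from 1.52 (Sucnr1) to 8.68 (Cyp7a1). The kept signs are favoured by the choice of genes and by the shared arrays.

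Among genes that rose in IDA livers, 8 of 15 were found. The difference was -6.47 for Hamp, -4.25 for Cxcl2, -3.45 for Cxcl1, -2.78 for Tlr2, -2.68 for Rsad2, -2.51 for Cd14, -1.80 for Cxcl10 and -1.62 for Calhm6. Among genes that fell, 12 of 15 were found. The difference was 7.60 for Cyp7a1, 3.16 for Nrep, 3.14 for Ppp1r3g, 2.74 for Usp2, 2.69 for Dclk3, 2.21 for G6pc, 2.13 for Acot3, 2.01 for Cd300lg, 1.98 for Slc2a2, 1.92 for Sucnr1, 1.91 for Ppargc1b and 1.77 for Klb. In all 20 the fitted KO ratio was the one closer to 0, which the choice of genes by the IDA response favours. Cxcl2 and Calhm6 were undetected in every IDA UT liver, and Nrep, Dclk3, Cd300lg, Sucnr1 and Ppargc1b in every IDA LPS liver. Their differences are fitted from signals below background, and the IDA response of each is known only as a lower bound, so no size of the difference was measured for these 7. In KO livers Hamp stood at up to 87.1% of the highest signal before LPS, which bounds its difference. Groups of 3 livers are too small for a test of single outlying livers.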

How the results depend on the processing

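The number of called members, 1842 (941 higher and 901 lower), became 1081 (613 and 468) with the authors' normalized intensities, 1088 (615 and 473) without background correction and 5384 (2484 and 2900) without the fold threshold. The count for the difference between responses, 612, became 326, 325 and 1227 under the same settings. Of the 1842 members, 1076 and 1084 were called the same way under the first and second. With each IDA liver left out in turn the counts lay between 1825 and 1925 in all, 931 and 963 higher, 894 and 962 lower, and 484 and 668 for the difference. The other settings kept them within 1.5 times, with 828 higher and 1096 lower under median scaling. No count of differences is given without the 3 Xist-positive livers, since too few KO UT livers then remain.

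Deviations of same-numbered saline and LPS livers from their group means correlated at -0.12, -0.11 and 0.06. Differently numbered livers spanned -0.13 to 0.18. With 3 livers per group this cannot show whether the numbers mark pairs or a batch, and the main fit treated the livers as unpaired. With the replicate block 1848 members were called (940 higher and 908 lower, 588 for the difference), and 1840 of the 1842 kept their call. Of 206 named genes that were called, 24 lost the call without 1 liver. The 1 reversal was Pim1, at -0.18 (adjusted p = 0.464) with no filter on dim probes, where another probe is the brighter. Signals near the top of the range limit what highly expressed plasma proteins can show.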
